A study of Mus musculus with 9 samples.

Results

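The genes of the urea cycle and of amino acid breakdown were followed in whole mouse liver by bulk RNA-Seq, which counts sequenced messenger RNA fragments per gene. The 40 genes were a list of named enzymes taken by symbol from the 43346 genes of the deposited count table. The rule used no measured value, but earlier results of these data were known when the list was made. All 40 passed the expression filter and were among the 15024 genes tested. Each of the 40 had at least 136 counts in every library. The study compared livers at baseline with regenerating livers 40 h after surgery, with and without NSC-87877 (NSC). The surgery removed 70% of the organ (partial hepatectomy). NSC is a small molecule inhibitor of the phosphatases SHP1 and SHP2. The mice, 12 weeks old, were of a strain given as C57/BL6 in the sample records and as C57BL/6J in the methods, and each of the 3 groups held 3 libraries. The sources used here do not say if equally numbered 0 h and 40 h samples were taken from a single animal.

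The baseline group held specimens resected at 0 h from mice given vehicle. The vehicle group held liver remnants at 40 h from mice given vehicle, and the NSC group held remnants at 40 h from mice given NSC in doses of 7.5 mg/kg given 2 times a day. The sample records place the first dose 12 h before surgery, and the methods 1 day before. No 0 h specimen of the NSC group was used here, so the 2 groups at 40 h share the 3 vehicle baseline livers. Baseline and 40 h samples also differed in the lobes taken and, since 40 h is not a whole number of days, in the hour of the day, and these differences cannot be told apart from that of the resection. In whole liver, fewer hepatocytes and less RNA per hepatocyte cannot be told apart either. Library totals ran from 23997363 to 42887589 counted reads, and the floor of 3 counts lay at 0.0751 to 0.117 CPM, the unit used for levels here (read counts scaled by library size and TMM factor).

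The liver is the main site of urea synthesis. Amino groups taken from amino acids end as ammonia and aspartate, and the urea cycle, run mostly in hepatocytes around the portal vein, joins them into urea. The carbon skeletons left behind feed the tricarboxylic acid cycle and glucose synthesis, and many of the enzymes are induced by fasting hormones, glucagon and glucocorticoids. The methionine branch makes the methyl donor S-adenosylmethionine and leads through cysteine to glutathione and taurine.

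Per unit length of transcript the 40 genes spanned a wide range at baseline. On the deposited FPKM scale (fragments scaled to gene length and library size) the highest mean levels belonged to *Tat* at 1487 ± 226 (SD, n = 3), *Mat1a* at 1486 ± 85.6, *Gnmt* at 1481 ± 141 and *Arg1* at 1479 ± 257. These 4 means differed by less than the spread over livers. *Ass1* followed at 1234 ± 18.7 FPKM. *Nags* at 21.0 ± 3.75 and *Sdsl* at 9.72 ± 1.22 FPKM were the lowest.

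Expression of these genes as a group was lower at 40 h under both treatments. Shares of counted reads give most weight to abundant genes, such as *Cps1* and *Mat1a* (means of 5663 and 4941 CPM at baseline). Neither gene passed the test between NSC and vehicle. The 40 genes took 4.60%, 4.36% and 4.49% of counted reads in the baseline livers, 2.33%, 2.73% and 2.48% in the vehicle livers and 2.15%, 1.97% and 2.28% in the NSC livers. The group means were 4.48% ± 0.119 at baseline, 2.51% ± 0.199 with vehicle and 2.13% ± 0.158 with NSC (SD, n = 3). Every 40 h liver lay below every baseline liver, and each NSC liver lay below each vehicle liver, although the closest pair of the latter, 2.28% and 2.33%, differed by less than either group's SD.

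**Figure D1:**
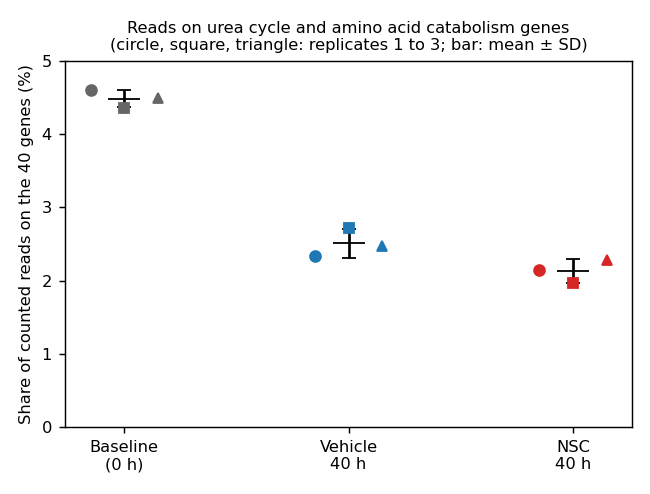
Share of counted reads that fell on the 40 genes (y axis, percent) in each of 9 samples, by group (x axis). Points are libraries and bars are means ± SD. The baseline livers sit between 4.36% and 4.60%, and all 6 livers at 40 h sit at 2.73% or below.

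In vehicle-treated mice, 28 of the 40 genes fell at 40 h and none rose (adjusted p under 0.05, edgeR quasi-likelihood test). Of all genes tested, 11.0% fell and 12.7% rose. The median log2 fold change of the 40 genes was -0.98, against 0.01 for all genes tested. In 30 of the 40 the vehicle livers were all below the baseline livers, as in 22.0% of all genes. With an absolute log2 fold change over 1.5 also required, 6 had fallen, against 2.19% of all genes.

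In NSC-treated mice, 34 of the 40 genes fell and 1, *Kmo*, rose. Of all genes tested, 16.5% fell and 18.2% rose. The median log2 fold change of the 40 was -1.21, again against 0.01 for all genes. In 35 of the 40 the NSC livers were all below the baseline livers, as in 23.1% of all genes. Under the added fold threshold 11 had fallen, against 2.75% of all genes.

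The 28 genes called with vehicle were also called with NSC, and 7 more were called with NSC alone: *Aldh4a1*, *Arg1*, *Cbs*, *Cps1*, *Kmo*, *Mat1a* and *Sdsl*. Another 5 genes, *Aass*, *Gldc*, *Kynu*, *Nags* and *Oat*, were called in neither comparison. Since both comparisons use the same baseline livers, these counts do not show that a gene differed between treatments. That question is taken up in the direct comparison at 40 h.

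**Figure D2:**
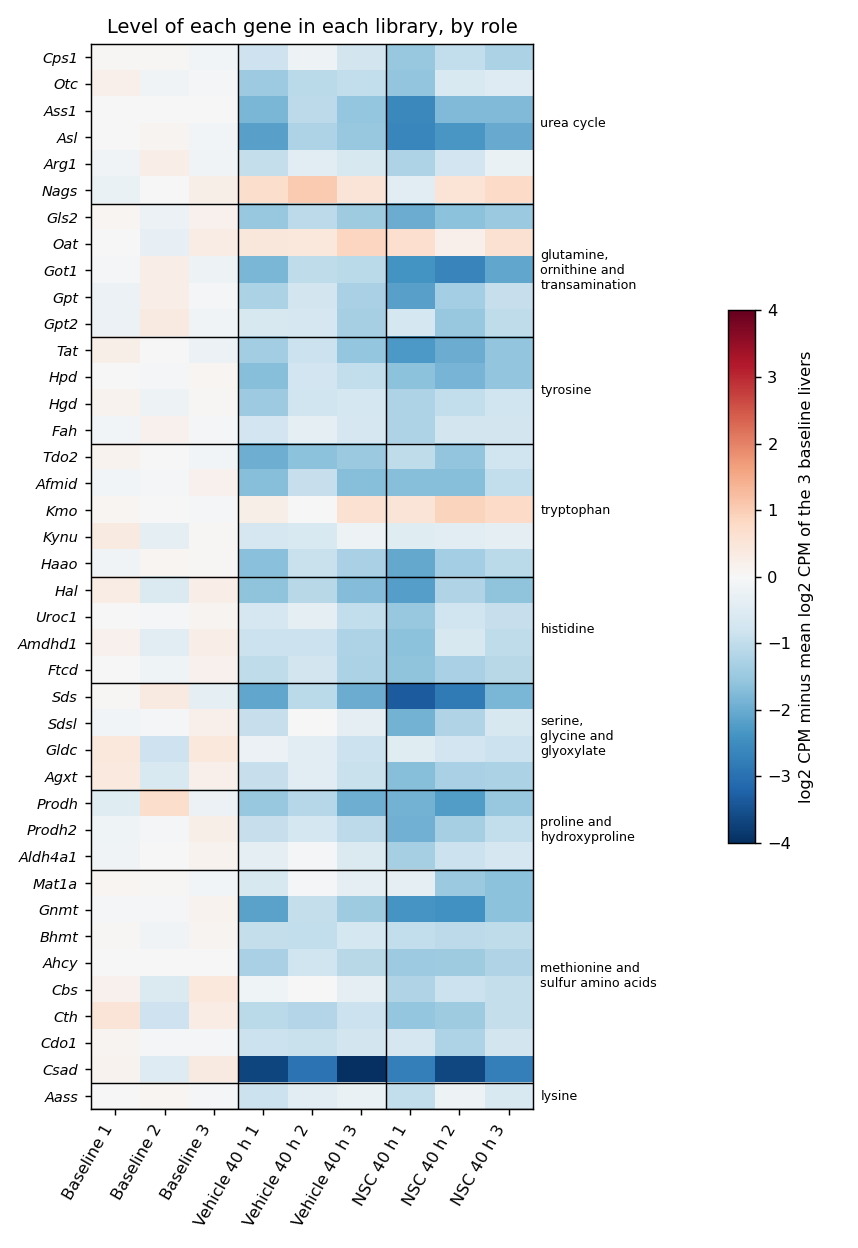
Level of each of the 40 genes (rows, grouped by role) in each of 9 libraries (columns), as log2 CPM minus the mean log2 CPM of the 3 baseline livers. Blue marks lower and red higher levels. Most rows turn blue in all 6 livers at 40 h, *Csad* most deeply, while *Nags*, *Oat* and *Kmo* do not.

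Urea cycle genes fell in part. With vehicle 3 of 6 fell (*Otc*, *Ass1* and *Asl*), and with NSC 5 of 6 fell (these and *Cps1* and *Arg1*). *Nags*, whose product makes the activator of carbamoyl phosphate synthetase, passed the test in neither comparison. The strongest changes were those of the consecutive enzymes *Ass1* and *Asl*.

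*Ass1* (ENSMUSG00000076441, chromosome 2, 31470207 to 31520672) encodes argininosuccinate synthase, which joins citrulline and aspartate. It was at 3107, 3041 and 3112 CPM at baseline, at 878, 1497 and 1053 CPM with vehicle, and at 517, 899 and 911 CPM with NSC. All livers at 40 h were below baseline, and the vehicle and NSC ranges overlapped narrowly. The level fell by 1.43 on the log2 scale with vehicle (standard error 0.25, adjusted p = 0.00222, edgeR) and fell by 1.99 with NSC (standard error 0.26, adjusted p = 0.00025, edgeR).

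*Asl* (ENSMUSG00000025533, chromosome 5, 130011258 to 130025132) encodes argininosuccinate lyase, which releases arginine and fumarate. Its levels were 1164, 1258 and 1089.7 CPM at baseline, 259, 492 and 412 CPM with vehicle, and 189.6, 233 and 287 CPM with NSC. The 6 livers at 40 h were all at less than the lowest baseline liver. *Asl* fell by 1.59 on the log2 scale with vehicle (standard error 0.24, adjusted p = 0.000869, edgeR) and fell by 2.31 with NSC (standard error 0.25, adjusted p = 7.75e-05, edgeR).

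*Cps1* (ENSMUSG00000025991, chromosome 1, 67123026 to 67231259) encodes carbamoyl phosphate synthetase, the mitochondrial entry of the cycle. It was at 5864, 5826 and 5301 CPM at baseline, at 3174, 4917 and 3370.2 CPM with vehicle, and at 1962, 2862 and 2328 CPM with NSC. The 3 groups did not overlap, with NSC livers lowest. With vehicle the log2 difference from baseline, -0.57 (standard error 0.22, adjusted p = 0.0783, edgeR), did not pass the threshold, while with NSC *Cps1* fell by 1.25 (standard error 0.22, adjusted p = 0.00144, edgeR).

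*Otc*, which makes citrulline, was at 495 ± 66.0 CPM at baseline, 219.6 ± 37.6 with vehicle and 276 ± 96.3 with NSC (SD, n = 3). *Arg1*, which releases urea from arginine, was at 2262 ± 394, 1409 ± 234 and 1376 ± 451 CPM, with adjusted p-values of 0.064 with vehicle and 0.0411 with NSC (edgeR). The NSC call of *Otc* was lost without baseline replicate 1 (adjusted p = 0.0795, edgeR). That of *Arg1* was lost without any of baseline replicates 1, 2 and 3, vehicle replicate 3 and NSC replicates 1 and 2 (adjusted p = 0.0585 to 0.141, edgeR), and also with library size only and with the 2 groups fitted alone. *Nags* was at 51.4, 61.1 and 72.7 CPM at baseline, 100.4, 126 and 87.3 CPM with vehicle and 45.7, 89.7 and 104 CPM with NSC. Its vehicle livers were all above baseline, by 0.76 on the log2 scale (adjusted p = 0.0645, edgeR), and its NSC livers spanned the baseline range.

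**Figure D3:**
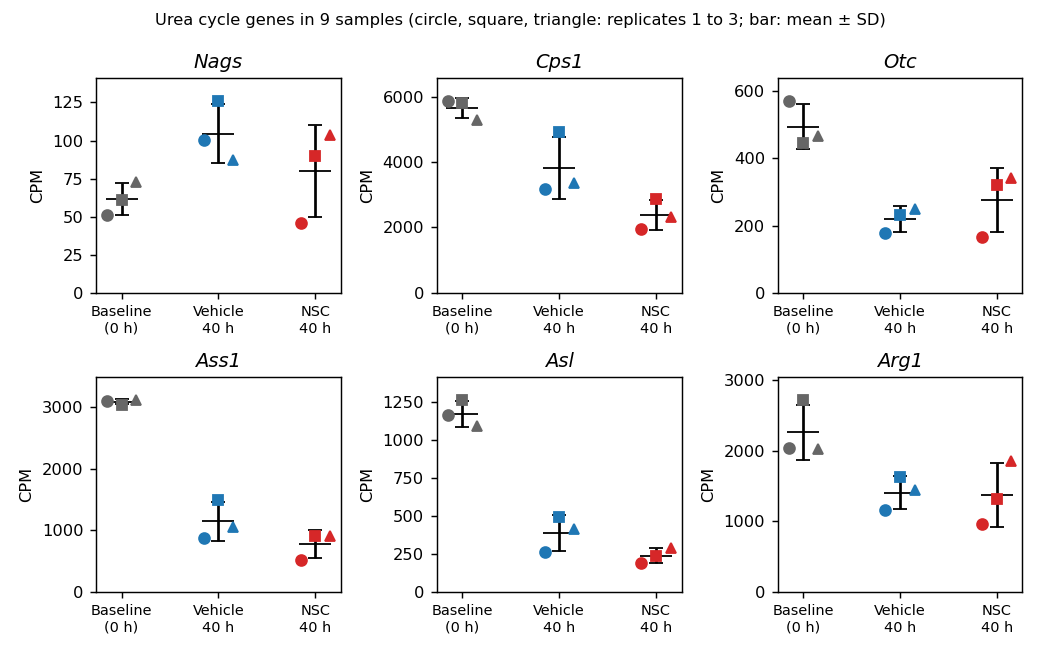
Level of the 6 urea cycle genes in each of 9 samples (y axes, CPM from 0), by group (x axes). Points are libraries and bars are means ± SD. *Ass1* and *Asl* drop from baseline to 40 h in every liver, *Cps1* has 3 groups that do not overlap, and *Nags* is above baseline in all 3 vehicle livers.

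Enzymes that move amino groups fell with 1 exception. Of 5 genes (*Gls2*, *Oat*, *Got1*, *Gpt* and *Gpt2*), 4 fell with each treatment and *Oat* passed the test in neither. *Got1* (ENSMUSG00000025190, chromosome 19, 43499752 to 43524605), the cytosolic aspartate aminotransferase, was at 484, 609 and 440.1 CPM at baseline, at 142, 248 and 241 CPM with vehicle, and at 95.8, 80.8 and 119 CPM with NSC. The 3 groups did not overlap. *Got1* fell by 1.28 on the log2 scale with vehicle (standard error 0.23, adjusted p = 0.00259, edgeR) and fell by 2.38 with NSC (standard error 0.24, adjusted p = 6.05e-05, edgeR), the smallest adjusted p of the 40 genes with NSC.

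*Gls2* (ENSMUSG00000044005, chromosome 10, 128194457 to 128210004), the liver glutaminase that frees ammonia from glutamine, was at 492, 398 and 522 CPM at baseline, 162, 226 and 176 CPM with vehicle and 119, 149.6 and 167 CPM with NSC. Every 40 h liver was below baseline, and the ranges of the 2 treatments met at 162 to 167 CPM. It fell by 1.32 on the log2 scale with vehicle (standard error 0.19, adjusted p = 0.000729, edgeR) and fell by 1.70 with NSC (standard error 0.19, adjusted p = 0.000122, edgeR). Its exons share 97 of 3474 bases with *Spryd4* on the opposite strand. The alanine aminotransferases *Gpt* (cytosolic) and *Gpt2* (mitochondrial) went from 313 ± 54.7 and 587 ± 139.5 CPM at baseline to 147 ± 34.1 and 324 ± 79.2 with vehicle and to 117 ± 47.1 and 281 ± 75.4 with NSC (SD, n = 3). The vehicle call of *Gpt* was lost without baseline replicate 2 or vehicle replicates 1 or 3 (adjusted p = 0.0582 to 0.0781, edgeR), and that of *Gpt2* without baseline replicates 2 or 3 or vehicle replicate 3 (0.0516 to 0.114). *Oat*, the ornithine aminotransferase, was at 1004, 799.6 and 1220.1 CPM at baseline, 1372, 1325 and 1814 CPM with vehicle, and 1575, 1131 and 1524 CPM with NSC. Its vehicle livers lay above all baseline livers without passing the test (log2 fold change 0.58, adjusted p = 0.072, edgeR).

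All 4 genes of tyrosine breakdown fell with both treatments. *Tat* (ENSMUSG00000001670, chromosome 8, 109990437 to 109999803), tyrosine aminotransferase and the first step, was at 4308, 3679.8 and 3137 CPM at baseline, 1405, 2023 and 1261 CPM with vehicle and 755, 931 and 1225 CPM with NSC. The 3 groups did not overlap, although the highest NSC and lowest vehicle liver were close. It fell by 1.25 on the log2 scale with vehicle (standard error 0.24, adjusted p = 0.0036, edgeR) and fell by 1.93 with NSC (standard error 0.25, adjusted p = 0.000225, edgeR).

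*Hpd* (ENSMUSG00000029445, chromosome 5, 123171807 to 123182725), hydroxyphenylpyruvate dioxygenase, was at 2455, 2424 and 2616 CPM at baseline, 763, 1471 and 1256 CPM with vehicle and 795, 685 and 834 CPM with NSC. Vehicle replicate 1 lay within the NSC range, and the other two vehicle livers above it. *Hpd* fell by 1.10 on the log2 scale with vehicle (standard error 0.23, adjusted p = 0.00489, edgeR) and fell by 1.70 with NSC (standard error 0.23, adjusted p = 0.000319, edgeR). *Hgd* (homogentisate dioxygenase) and *Fah* (fumarylacetoacetate hydrolase), the last step, were at 879 ± 109 and 717 ± 73.9 CPM at baseline, 453 ± 117 and 473 ± 68.0 with vehicle, and 439 ± 64.2 and 388 ± 73.2 with NSC (SD, n = 3). The vehicle call of *Fah* (adjusted p = 0.0376, edgeR) was lost without any of baseline replicates 1, 2 and 3, vehicle replicates 1 and 3 and NSC replicate 2 (0.0513 to 0.135).

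Tryptophan genes of the kynurenine pathway split. Of 5 genes, 3 fell with each treatment (*Tdo2*, *Afmid* and *Haao*), *Kynu* passed neither test, and *Kmo* rose with NSC. *Tdo2* (ENSMUSG00000028011, chromosome 3, 81957090 to 81976202), tryptophan dioxygenase at the entry of the pathway, was at 1776, 1584 and 1493 CPM at baseline, 419, 521 and 574 CPM with vehicle and 799, 539.8 and 930.1 CPM with NSC. All 40 h livers were below baseline, and here 2 of the 3 NSC livers were above every vehicle liver. *Tdo2* fell by 1.68 on the log2 scale with vehicle (standard error 0.22, adjusted p = 0.000395, edgeR) and fell by 1.10 with NSC (standard error 0.22, adjusted p = 0.00268, edgeR).

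*Afmid* (ENSMUSG00000017718, chromosome 11, 117825924 to 117839908), kynurenine formamidase, was at 166, 167 and 201 CPM at baseline, 55.0, 94.7 and 55.1 CPM with vehicle and 54.9, 54.0 and 89.1 CPM with NSC. In each treatment 2 livers were near 55 CPM and 1 near 90 CPM. *Afmid* fell by 1.39 on the log2 scale with vehicle (standard error 0.25, adjusted p = 0.00275, edgeR) and fell by 1.43 with NSC (standard error 0.25, adjusted p = 0.00155, edgeR). Its exons share 1566 of 3539 bases with *Gm20708* on the same strand, so its level is uncertain. They also share 83 bases with *Tk1* on the opposite strand.

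*Kmo*, which hydroxylates kynurenine, was at 341, 319 and 305 CPM at baseline, 381, 327 and 492 CPM with vehicle and 461, 594 and 544 CPM with NSC. The NSC livers lay above all baseline livers, and the vehicle livers overlapped both groups. *Kmo* rose by 0.73 on the log2 scale with NSC (standard error 0.18, adjusted p = 0.00925, edgeR), a call lost after correction for GC content. *Kmo*, *Nags* and *Oat* are given by library because their values stood out from the rest. *Haao* (hydroxyanthranilate dioxygenase) went from 677 ± 49.9 CPM to 283 ± 75.6 with vehicle and 248 ± 79.0 with NSC, and *Kynu* (kynureninase) from 184 ± 47.2 to 128 ± 23.1 and 133 ± 3.67 (SD, n = 3).

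All 4 histidine genes fell with both treatments. They act in sequence, from *Hal* (histidine ammonia lyase) through *Uroc1* (urocanate hydratase) and *Amdhd1* (imidazolonepropionase) to *Ftcd*, which passes the formimino group to folate. *Hal* changed most, from 582 ± 176 CPM at baseline to 205 ± 49.4 with vehicle and 183 ± 60.5 with NSC (SD, n = 3). *Ftcd* went from 573 ± 70.0 to 287 ± 53.2 and 229 ± 38.7 CPM. The vehicle call of *Uroc1* was lost without any of baseline replicates 1, 2 and 3, vehicle replicates 1 and 3 and NSC replicate 2 (adjusted p = 0.0536 to 0.167, edgeR). That of *Amdhd1* was lost without baseline replicates 1 or 3 or vehicle replicate 3 (adjusted p = 0.0572 to 0.0729, edgeR).

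Promoter windows are shown for 3 genes that fell under both treatments, to let a reader see the sequence around their starts. RefSeq windows (GRCm38.p6, from 250 bases before to 50 after the start) matched 29 of the 40 genes in 30 windows. Both strands were searched for TTGCNNAA (C/EBP), CAAAGTCCA (HNF4), ACANNNTGT (the glucocorticoid receptor core), TGACGTCA (CREB) and TATAAA (the core promoter box), and capitals mark the matches. *Hal* (chr10:93488518-93488817, plus strand) holds a C/EBP match, then a glucocorticoid receptor core match that overlaps a TATAAA match by 1 base. That TATAAA match is on the opposite strand (TTTATA as printed), at position -28 from the start. *Tdo2* (chr3:81975679-81975978, minus strand) holds a TATAAA match, at position -229 from the start, and a glucocorticoid receptor core match. *Ass1* (chr2:31470020-31470319, plus strand) holds none of the 5, and 74% of its bases are G or C.
Hal: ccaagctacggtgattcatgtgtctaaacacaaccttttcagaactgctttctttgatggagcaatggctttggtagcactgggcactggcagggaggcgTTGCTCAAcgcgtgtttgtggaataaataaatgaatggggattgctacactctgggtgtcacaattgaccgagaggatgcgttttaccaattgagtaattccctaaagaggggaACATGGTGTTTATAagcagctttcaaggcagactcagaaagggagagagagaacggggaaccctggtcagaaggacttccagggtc
Tdo2: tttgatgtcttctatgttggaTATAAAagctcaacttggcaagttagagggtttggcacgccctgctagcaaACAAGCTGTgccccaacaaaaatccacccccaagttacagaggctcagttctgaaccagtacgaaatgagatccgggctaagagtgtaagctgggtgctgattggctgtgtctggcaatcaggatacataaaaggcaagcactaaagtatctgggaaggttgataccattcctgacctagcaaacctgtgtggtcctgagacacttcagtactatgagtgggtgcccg
Ass1: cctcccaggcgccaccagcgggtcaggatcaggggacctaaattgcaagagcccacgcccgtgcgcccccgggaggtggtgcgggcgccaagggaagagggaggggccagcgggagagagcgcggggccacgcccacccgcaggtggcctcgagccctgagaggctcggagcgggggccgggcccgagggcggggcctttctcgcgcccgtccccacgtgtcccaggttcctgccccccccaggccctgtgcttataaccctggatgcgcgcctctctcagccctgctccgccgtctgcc

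Among the 29 genes with a window, 4 (13.8%) held the C/EBP letters, against 12.2% of 27025 genes. The glucocorticoid receptor core stood in 4 (13.8%) against 7.90%, and TATAAA in 4 (13.8%) against 15.7%. The HNF4 and CREB letters were in none of the 29, against 0.555% and 2.03% of all genes. A match describes letters in the window and is no evidence of binding.

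Serine, glycine and glyoxylate genes fell in 2 of 4 cases with vehicle (*Sds* and *Agxt*) and in 3 of 4 with NSC (*Sdsl* also). *Sds*, the serine dehydratase that makes pyruvate, went from 380.2 ± 94.8 CPM to 119.7 ± 49.9 with vehicle and 65.2 ± 36.0 with NSC (SD, n = 3), a log2 fold change of -1.67 and -2.54. Its exons share 360 of 1694 bases with *Plbd2* on the opposite strand. *Agxt*, which clears glyoxylate by transfer of an amino group from alanine, was at 374 ± 122, 217 ± 43.7 and 136 ± 22.4 CPM. Its baseline replicate 2 lay within the vehicle range. *Sdsl*, a relative of *Sds*, was at 15.1 ± 1.79, 11.5 ± 3.64 and 6.73 ± 2.76 CPM. The vehicle call of *Sds* was lost without baseline replicates 1 or 2 or vehicle replicates 1 or 3 (adjusted p = 0.0544 to 0.0751, edgeR) and with all genes of at least 1 count (0.0671). That of *Agxt* was lost without baseline replicates 1 or 3, vehicle replicates 1 or 3 or NSC replicate 2 (adjusted p = 0.0549 to 0.158, edgeR) and with the replicate block (0.0682). The NSC call of *Sdsl* was lost with GC correction (adjusted p = 0.0628, edgeR). *Gldc*, of the glycine cleavage system, was at 211 ± 87.3, 139 ± 29.9 and 121 ± 16.4 CPM and passed neither test (adjusted p = 0.168 with vehicle and 0.0588 with NSC, edgeR).

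Of the proline genes, *Prodh* (proline dehydrogenase) and *Prodh2* (hydroxyproline dehydrogenase) fell with both treatments, and *Aldh4a1*, which completes the conversion to glutamate, fell with NSC. *Prodh* was at 246 ± 115 CPM at baseline, 81.1 ± 22.1 with vehicle and 64.1 ± 15.3 with NSC (SD, n = 3), and *Prodh2* at 217 ± 32.6, 117 ± 14.6 and 83.7 ± 25.6 CPM. The vehicle call of *Prodh2* was lost without baseline replicate 3 (adjusted p = 0.0557, edgeR) or vehicle replicate 3 (0.0565). *Aldh4a1* was at 531 ± 54.1, 418 ± 73.7 and 278 ± 62.7 CPM, and shares 1595 of 4907 exon bases with *Gm21969* on the same strand, so its level is uncertain.

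Methionine and sulfur amino acid genes fell in 6 of 8 cases with vehicle and in all 8 with NSC. *Csad* (ENSMUSG00000023044, chromosome 15, 102176998 to 102189043), cysteine sulfinate decarboxylase on the way to taurine, had the largest log2 fold change of the 40 genes in both comparisons with baseline. It was at 892, 566 and 1022 CPM at baseline, 62.9, 102 and 45.7 CPM with vehicle and 119.5, 64.6 and 121 CPM with NSC. The 40 h livers were all far below baseline, and the 2 treatments overlapped. *Csad* fell by 3.55 on the log2 scale with vehicle (standard error 0.38, adjusted p = 0.00022, edgeR), which is 11.7-fold, and fell by 3.02 with NSC (standard error 0.37, adjusted p = 0.0003, edgeR), which is 8.12-fold. *Csad* shares 278 of 3831 exon bases with *Zfp740* on the opposite strand, and the strand setting of the counting is not given in the sources used here.

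*Ahcy* (ENSMUSG00000027597, chromosome 2, 155059310 to 155074497), which hydrolyses S-adenosylhomocysteine, was at 1398, 1414 and 1429 CPM at baseline. It was at 581, 821 and 658 CPM with vehicle and at 518, 525 and 613 CPM with NSC, and NSC replicate 3 lay within the vehicle range. The level fell by 1.04 on the log2 scale with vehicle (standard error 0.18, adjusted p = 0.00165, edgeR) and fell by 1.36 with NSC (standard error 0.18, adjusted p = 0.000257, edgeR).

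*Cbs* (ENSMUSG00000024039, chromosome 17, 31612623 to 31637199), cystathionine synthase at the branch to cysteine, was at 809, 475 and 950.3 CPM at baseline, 632, 705 and 547 CPM with vehicle and 312, 391 and 367 CPM with NSC. Vehicle livers lay inside the baseline range, and NSC livers were below both other groups. The log2 fold change was -0.25 with vehicle (standard error 0.23, adjusted p = 0.484, edgeR), and with NSC *Cbs* fell by 1.06 (standard error 0.24, adjusted p = 0.00496, edgeR).

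*Mat1a*, the S-adenosylmethionine synthetase of adult hepatocytes, was at 5156, 5084 and 4582 CPM at baseline, 3146, 4733 and 3780.2 CPM with vehicle and 3836, 1761 and 1575 CPM with NSC. NSC replicate 1 stood apart from the other two NSC livers and lay within the vehicle range. *Mat1a* fell with NSC (log2 fold change -1.05, standard error 0.31, adjusted p = 0.0211, edgeR), a call that was lost without baseline replicate 1 (adjusted p = 0.0558), NSC replicate 2 (0.0845) or NSC replicate 3 (0.0643).

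The remaining members of this branch are *Gnmt*, which consumes S-adenosylmethionine, *Bhmt*, which remethylates homocysteine, *Cth*, which completes cysteine synthesis, and *Cdo1*, which oxidises cysteine. *Gnmt* was at 1851 ± 165 CPM at baseline, 692 ± 268 with vehicle and 430.2 ± 138 with NSC (SD, n = 3). *Bhmt* was at 3811 ± 337, 2081 ± 214 and 1889 ± 37.4 CPM, and *Cdo1* at 1448 ± 110.0, 818 ± 44.4 and 803 ± 159 CPM. *Cth* was at 1067, 423 and 929 CPM in the baseline livers, of which replicate 2 was low, and at 368 ± 42.3 and 308 ± 68.3 CPM with vehicle and NSC. Its vehicle call was lost without baseline replicates 1 or 3 or vehicle replicates 1 or 2 (adjusted p = 0.0638 to 0.0753, edgeR). The lysine gene *Aass* was at 315 ± 16.7, 222 ± 44.5 and 213 ± 56.4 CPM and passed neither test (adjusted p = 0.101 with vehicle and 0.0553 with NSC, edgeR).

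**Figure D4:**
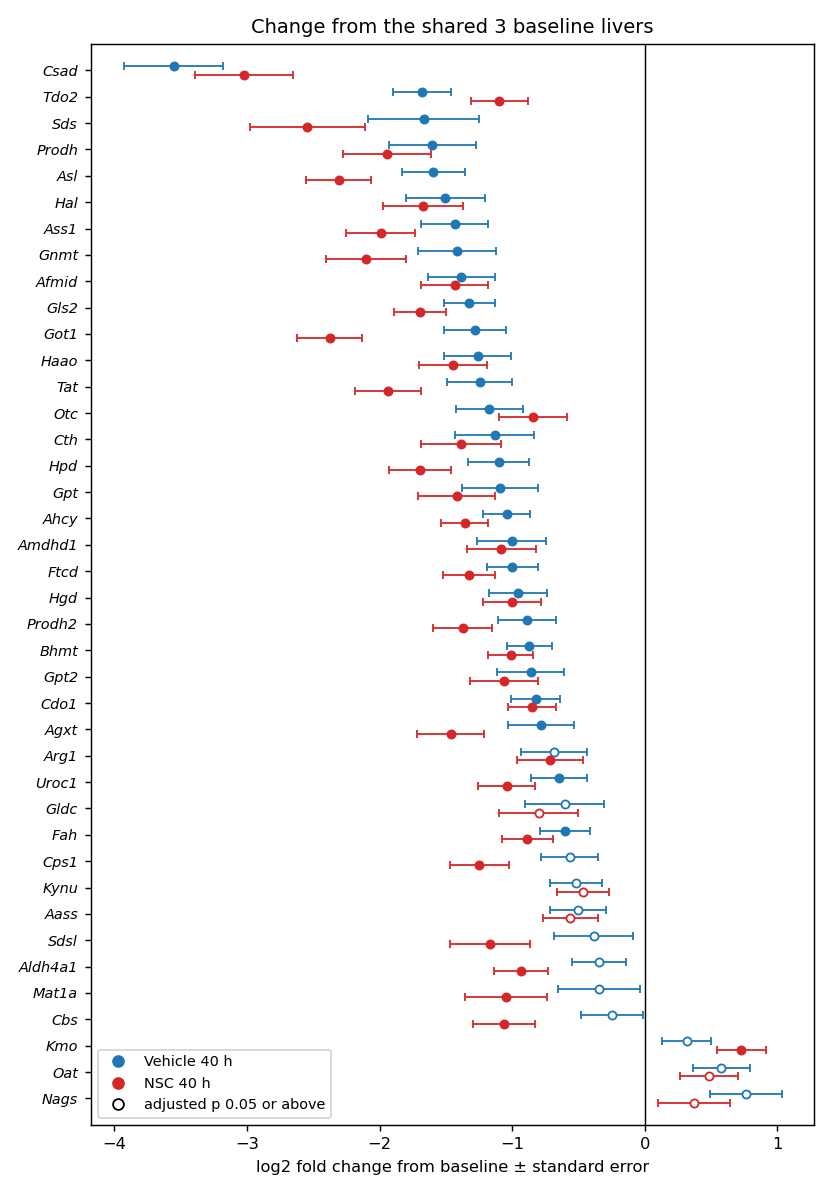
Log2 fold change from baseline ± standard error (x axis) of the 40 genes (y axis, in order of the vehicle value), for vehicle (blue) and NSC (red) at 40 h. Filled points have an adjusted p under 0.05, and both comparisons share the 3 baseline livers. All genes except *Kmo*, *Oat* and *Nags* lie left of 0 in both.

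Between NSC and vehicle at 40 h, none of the 40 genes passed the test (edgeR quasi-likelihood test). Of all genes tested, 0.0399% were called lower with NSC and 0.00% higher. At an unadjusted p under 0.05, 13 of the 40 were lower with NSC, against 10.2% of all genes, and 2 were higher (*Tdo2* and *Kmo*), against 9.30%. DESeq2 called 3 of the 40 lower (*Got1*, *Cbs* and *Cps1*), and none higher, against 5.05% of all genes in either direction, where 466 of 15024 genes were lower. In 35 of the 40 the fitted level was lower with NSC, against 48.5% of all genes, with a median log2 fold change of -0.32 against 0.02. In 7 of the 40 the NSC livers were all below the vehicle livers, against 12.2% of all genes.

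The 3 genes with the smallest p were *Got1*, *Cbs* and *Cps1*, and none passed the threshold. For *Got1* the log2 fold change was -1.10 (standard error 0.23, adjusted p = 0.0849, edgeR), for *Cbs* it was -0.82 (standard error 0.24, adjusted p = 0.118, edgeR) and for *Cps1* it was -0.68 (standard error 0.22, adjusted p = 0.14, edgeR). Over the alternatives, the adjusted p ranged from 0.00208 to 0.323 for *Got1*, from 0.0251 to 0.39 for *Cbs* and from 0.033 to 0.461 for *Cps1*. Only 5 of the 40 had a positive fold change, namely *Tdo2* (0.58), *Csad* (0.53), *Kmo* (0.41), *Otc* (0.33) and *Kynu* (0.05), on the log2 scale. At the other end, values near 0 did not show that the treatments were alike, as for *Arg1* at -0.03 (standard error 0.25).

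Base composition moved with this comparison. Over the 40 genes the log2 fold change between NSC and vehicle correlated with the GC content of the longest transcript at a Spearman rho of -0.62 (Pearson -0.59), and over 14900 genes tested at -0.56 (Pearson -0.49). These points share the same 6 libraries. After correction for GC content the rho over the 40 genes was -0.08, 33 of the 40 were lower with NSC, and the median was -0.18, with none called. The correction was fitted to the GC trend of these same libraries, so the drop in rho was built in. Scaling by library size only left 28 of the 40 lower, with a median of -0.19, where the median of all genes was 0.14.

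**Figure D5:**
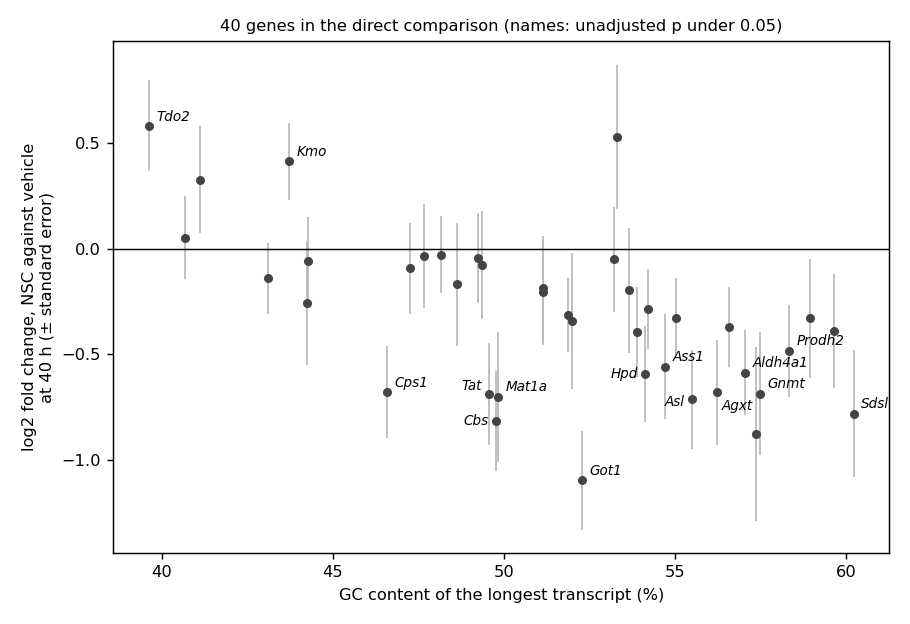
Log2 fold change between NSC and vehicle at 40 h ± standard error (y axis) against the GC content of the longest transcript in percent (x axis) for the 40 genes. Names mark genes with an unadjusted p under 0.05. *Tdo2*, *Kynu*, *Otc* and *Kmo* lie above 0 at low GC, where *Bhmt*, *Cth*, *Aass* and *Cps1* lie below it. In all, 35 of the 40 genes lie below 0.

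Single libraries also weighed on the direct comparison. NSC replicate 1 had the lowest level of the NSC livers in 27 of the 40 genes, and vehicle replicate 2 the highest of the vehicle livers in 28. Without NSC replicate 1, 28 of the 40 were lower with NSC and the median log2 fold change was -0.21, and 2 genes were called lower, *Mat1a* (log2 fold change -1.22, adjusted p = 0.00805, edgeR) and *Got1* (-1.08, adjusted p = 0.0345, edgeR). Of all genes 2.73% were called lower in that fit, so 2 of 40 is near the background. Without vehicle replicate 2, 31 were lower, with a median of -0.18 and no call. In all, 28 of the 40 kept the sign of their direct fold change in each of 17 alternatives, 24 of them lower with NSC, and 12 changed sign in 1 or more.

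Markers of liver cells are given beside these results, and their part in them was not tested. The 9 hepatocyte markers summed to 139599 to 145062 CPM at baseline, 135071 to 185807 with vehicle and 134426 to 145084 with NSC, with medians of the log2 fold change of -0.02 and -0.10 from baseline. Proliferation markers (8 genes, all higher at 40 h under both treatments) summed to 29.6 to 30.9, 355 to 432 and 259 to 896 CPM, NSC replicate 1 being the lowest of its group. The 8 macrophage markers summed to 171 to 241, 163 to 296 and 310.4 to 509.6 CPM, so that the NSC livers lay above both other groups. The sums of stellate (6 genes; 147 to 179, 261 to 329.5 and 184 to 318 CPM) and cholangiocyte markers (5 genes; 37.8 to 40.6, 76.0 to 114 and 79.0 to 121 CPM) lay above baseline at 40 h. Of the 6 stellate markers, 4 were called higher than baseline with vehicle and 1 with NSC. Of the 5 cholangiocyte markers, 4 were with vehicle and 3 with NSC. Of the 8 macrophage markers, 2 were with vehicle and 4 with NSC. Among the 9 hepatocyte markers, 1 was called lower and 2 higher with vehicle, and 1 lower and 1 higher with NSC. Their log2 fold changes ran from -0.81 to 1.37 with vehicle and from -0.73 to 0.91 with NSC. Of all genes tested, 11.0% were called lower and 12.7% higher with vehicle, and 16.5% and 18.2% with NSC. The sums for 6 endothelial markers were 173 to 180.1, 109.7 to 177 and 127 to 226 CPM, for 6 neutrophil markers 3.82 to 11.6, 9.74 to 20.9 and 13.3 to 21.9 CPM, and for 5 erythroid markers 215 to 311, 99.3 to 174 and 123 to 219 CPM. NSC replicate 1 had the highest macrophage, stellate, endothelial and neutrophil sums of the NSC livers. No marker was at 0 in all libraries of a group.

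Zonal markers of both ends of the lobule had lower sums at 40 h than at baseline, but differed gene by gene. Of all genes tested, 11.0% fell and 12.7% rose with vehicle, and 16.5% fell and 18.2% rose with NSC. The 6 periportal markers, which include the members *Sds*, *Hal* and *Gls2*, summed to 7051 to 8578 CPM at baseline, 2738 to 4514 with vehicle and 2288 to 2424 with NSC, and 5 of 6 fell with each treatment. The 8 pericentral markers, which include *Oat*, summed to 6283 to 7992, 4076 to 5306 and 4591 to 5145 CPM, and with each treatment 1 fell (*Cyp2e1*) and 2 rose (*Lgr5* and *Axin2*). In each comparison with baseline, 4 of the 8 pericentral markers were lower by any amount and 4 were higher. Their median log2 fold change was 0.17 with vehicle and 0.00 with NSC, against -1.37 and -1.68 for the periportal markers. The part of the zonal markers in the changes of the 40 genes was not tested.

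Further genes of the same pathways were read from wider lists. Of all genes tested, 11.0% fell and 12.7% rose with vehicle. With NSC, 16.5% fell and 18.2% rose, and these shares stand beside the counts of each list below. For branched chain amino acids, which are broken down mainly beyond the liver at their first step, 16 of 22 genes fell with vehicle and 14 with NSC, and none rose. *Bckdha*, a subunit of the branched chain ketoacid dehydrogenase, went from 208, 262 and 270.2 CPM at baseline to 146, 136 and 86.2 with vehicle and 79.8, 78.8 and 113 with NSC. *Pccb* and *Mccc2*, subunits of propionyl and methylcrotonyl CoA carboxylases, each fell by 1.17 on the log2 scale with NSC (adjusted p = 0.000119 and 7.75e-05, edgeR). *Bcat2*, the mitochondrial branched chain aminotransferase, fell by 1.10 with NSC (adjusted p = 0.000722, edgeR).

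Among 36 tested genes of other breakdown steps and urea cycle partners, 16 fell and 1 rose with vehicle, and 20 fell and 1, *Gatm* of creatine synthesis, rose with NSC. With vehicle and NSC in turn, the log2 fold changes were -1.43 and -1.86 for *Aspg* (an asparaginase), -1.71 and -1.54 for *Dhtkd1* (lysine and tryptophan breakdown) and -1.22 and -1.39 for *Suox* (sulfite oxidase), all past the test. *Acmsd*, which diverts kynurenine products from NAD synthesis, rose by 1.53 with vehicle (adjusted p = 0.0157, edgeR).

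Genes of the synthesis side and of isozymes used outside the adult liver went the other way, with 8 of 16 higher and none lower with vehicle, and 9 higher and none lower with NSC. *Psat1*, of serine synthesis, was at 0.348, 0.489 and 0.198 CPM at baseline, 23.8, 6.74 and 4.13 with vehicle and 12.5, 5.40 and 6.34 with NSC. *Phgdh*, which starts serine synthesis, was at 0.221, 0.214 and 0.066 CPM, then 5.63, 2.82 and 1.48 with vehicle and 0.990, 0.679 and 1.37 with NSC. Both were near the floor of 3 counts at baseline, so their fitted fold changes depend on the prior count. *Aldh18a1* (proline and ornithine synthesis) had log2 fold changes of 2.81 (vehicle) and 2.17 (NSC), and *Pycr1* (proline synthesis) rose by 2.29 with vehicle. *Mat2a*, the isozyme of *Mat1a* in growing cells, chosen after its values were seen, rose by 1.14 with NSC (adjusted p = 0.00494, edgeR) and was at 0.62 with vehicle (adjusted p = 0.0892).

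Of 16 regulators and fasting genes, 9 fell with vehicle and 11 with NSC, and none rose. *G6pc*, the last enzyme of glucose release, fell with log2 fold changes of -2.03 with vehicle and -2.60 with NSC, and *Pck1*, of glucose synthesis, with -0.84 and -1.97. *Klf15*, a glucocorticoid-induced factor that drives amino acid breakdown, fell with -1.25 and -1.56, and *Cebpa*, a hepatocyte factor, with -1.55 and -1.32. No gene of these 4 lists was called between NSC and vehicle, where the medians of the lists lay between -0.20 and 0.05 on the log2 scale.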

How the data were processed

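RNA of 9 whole liver samples was sequenced from stranded mRNA libraries. Paired-end reads were aligned by the authors with STAR (2.6.1 in the submitters' processing notes) in the MAP-RSeq pipeline and counted them on genes with Subread (1.5.1 in those notes), and deposited unnormalized read counts per gene, 1 column for each library, with no pooling. The deposited FPKM values are these counts divided by the gene length plus 1 base and by the library total (largest relative difference on recomputation 4.96e-10). The deposited gene length column of the authors' table was used only for that check. The methods and notes name the human build hg38, whereas identifiers and positions are those of mouse GRCm38. The strand setting of the counting is not given in the sources used here.

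Counts were scaled by TMM and tested with edgeR 4.0.16 under R 4.3.3, by its quasi-likelihood test with robust estimation on all 9 libraries, the group as the only term and genes kept by filterByExpr, with Benjamini-Hochberg adjustment over 15024 genes. A gene was called, and is said to have risen or fallen, at an adjusted p under 0.05. The standard error is the absolute log2 fold change divided by the square root of F. An exact permutation test of 3 against 3 cannot give a 2-sided p below 0.1. The procedure was tested on simulated data. Python 3.11.15 (pandas 2.3.3, matplotlib 3.10.9) drew the plots. The study calls the samples of a group biological replicates.

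The 40 genes and all lists were chosen with earlier results of these data known. Values by library are given for the 8 called genes with the smallest adjusted p in each comparison with baseline. They are also given for the 3 genes with the smallest p in the direct comparison, where none was called. Outside this rule, *Kmo*, *Nags*, *Oat* and *Mat1a*, and the baseline livers of *Cth*, are given by library too. From each wider list up to 4 called genes with the largest change are named. GC content came from the longest GENCODE M21 transcript (99.2% of tested genes). Same-numbered samples of different groups were compared by the correlation of their deviations from group means. It ran from -0.0479 (baseline and vehicle replicates 3) to 0.134 (vehicle and NSC replicates 1), and was positive in every other same-numbered pair. Differently numbered pairs ran from -0.115 to 0.0659. With values this low the numbers were not taken to pair samples, but pairing was not excluded. Alternatives were DESeq2 1.42.0, RLE factors, library size only, a filter of 1 count in any library or of 10 counts in all of them, fits of 2 groups at a time, a term for the replicate number, a log2 fold change over 1.5, a loess correction for GC content (span 0.5) and leaving out each library in turn. Comparisons of protein sequences were not run.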

Additional observations from a re-analysis of the deposited data

How the results depend on the processing

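In vehicle livers, 28 genes were lower than baseline, and 20 to 30 were when 1 library was left out (20 without vehicle replicate 3). Of these 28, 19 were called under every alternative, the fold threshold left aside, and of the 35 called with NSC 30 were. *Agxt*, *Amdhd1*, *Cth*, *Fah*, *Gpt*, *Gpt2*, *Prodh2*, *Sds* and *Uroc1* lost the vehicle call in 1 or more, and *Arg1*, *Kmo*, *Mat1a*, *Otc* and *Sdsl* the NSC call. Leaving out 1 library gave 31 to 35 genes lower with NSC. With an absolute log2 fold change over 1.5, 6 were lower with vehicle, and 11 lower and 0 higher with NSC. No gene was higher with vehicle in the reported test, but 2 (*Nags* and *Oat*) were with DESeq2 and with the replicate block, 1 (*Nags*) with library size only, with only the 2 groups compared and with GC correction, and 0 to 1 with 1 library left out. With NSC, 2 were higher with library size only and with the replicate block (*Kmo* and *Oat*), and 1 to 2 with 1 library left out, while GC correction left 1, *Nags* in place of *Kmo*. Between NSC and vehicle, 3 genes were lower with DESeq2, 1 (*Got1*) with all genes of at least 1 count, and 0 to 2 with 1 library left out, 2 without NSC replicate 1. Over all genes these settings called 758 of 15024, 221 of 24325 and, without NSC replicate 1, 994 of 15390, against 6 of 15024. The cause was not tested. The replicate block otherwise gave 29 and 35 genes lower than baseline with vehicle and NSC, and 0 in the direct comparison. Scaling by library size only moved the median log2 fold change of all genes to 0.15 with NSC against baseline and to 0.14 against vehicle. No gene of the 40 had fewer than 136 counts in a library, and precision rests on 3 samples per group.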
